A study of Mus musculus with 9 samples.

Results

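The comparison examined here set stripped mouse back skin that received a cream holding graphene oxide of nanometre size (NGO, sheets of oxidised carbon) against stripped back skin that received the control cream. Its members were taken from the sample labels and not from any measured value: all libraries labelled tape-stripping with NGO cream (3) and all labelled tape-stripping with control cream (3), 6 of the 9 libraries deposited. Every mouse was a wild-type C57BL/6 animal. The age and sex of the mice are not given in the sources used here. The NGO dose was 50 µg per mouse, given in 100 µL of cream per the labels' protocols, and skin was collected 24 h later. The whole skin sample was extracted with Trizol, and 500 ng of total RNA entered a Lexogen QuantSeq library, a kit that reads mainly the 3′ end of polyadenylated RNA. The other 3 libraries came from unstripped skin that carries the control cream label, although the protocol describes cream on the stripped area only. They are used below as a reference level and in the estimate of the spread. Nothing in the labels says that replicates 1 to 3 of a group came from different animals, so the p-values describe only how much these samples spread, which may be technical. The series title names acute skin inflammation as the subject.

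Tape stripping pulls the outer layers of the epidermis off the skin. The epidermis is renewed by basal keratinocytes, which divide on the basement membrane, express the keratins Krt5 and Krt14, and move outward while they switch to Krt1 and Krt10, build desmosomes and finally form a cornified, lipid-sealed barrier. After such an injury keratinocytes and resident cells release interleukin-1 and chemokines such as Cxcl1 and Cxcl2, which draw neutrophils from the blood. Neutrophils carry large amounts of the calprotectin subunits S100a8 and S100a9. Below the dermis of mouse back skin lies a sheet of skeletal muscle, the panniculus carnosus, so a skin sample can hold muscle RNA. In such bulk samples fewer cells of a type and less RNA per cell cannot be told apart.

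Promoter sequence is shown for 7 called genes from the 2 main patterns, cell division genes that were higher with NGO and inflammation or stress genes that were lower. The 7 were chosen after their values were seen. Each line holds the 120 bases just upstream of the RefSeq transcription start, 5′ to 3′ on the gene's own strand, on GRCm38.p6 (the mm10 build). Gene spans given below are from GENCODE, whose starts can differ. The Cdca8 stretch lies inside its GENCODE span, and those of Cxcl2 and Cxcl1 run into theirs. In the first 4, which belong to genes of mitosis, capitals mark CCAAT (the box bound by NF-Y) and the cell cycle element letters TTTGAA or TTCGAA, on either strand, so that ATTGG and TTCAAA are the same motifs read on the other strand.
Top2a, chr11:99024190-99024309, minus strand: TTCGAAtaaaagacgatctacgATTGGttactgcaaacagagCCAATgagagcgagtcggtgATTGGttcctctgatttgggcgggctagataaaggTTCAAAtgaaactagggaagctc
Cdc20, chr4:118437344-118437463, minus strand: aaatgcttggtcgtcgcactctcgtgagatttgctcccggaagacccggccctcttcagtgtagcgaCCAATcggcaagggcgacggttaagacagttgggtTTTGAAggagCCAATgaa
Plk1, chr7:122159315-122159434, plus strand: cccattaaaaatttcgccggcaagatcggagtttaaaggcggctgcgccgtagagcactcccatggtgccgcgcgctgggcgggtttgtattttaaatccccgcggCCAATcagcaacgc
Cdca8, chr4:124936918-124937037, minus strand: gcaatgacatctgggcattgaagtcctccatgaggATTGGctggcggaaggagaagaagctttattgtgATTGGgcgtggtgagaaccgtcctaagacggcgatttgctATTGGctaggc
In the 2 chemokine genes capitals mark GGGA followed after any 4 bases by CC, letters contained in the NF-kB consensus, and in the small heat shock gene Hspb1 they mark GAANNTTC, the core of the heat shock element, both searched on both strands.
Cxcl2, chr5:90903779-90903898, plus strand: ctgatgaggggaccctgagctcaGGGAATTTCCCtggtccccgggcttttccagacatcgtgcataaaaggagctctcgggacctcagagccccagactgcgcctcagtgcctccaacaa
Cxcl1, chr5:90891125-90891244, plus strand: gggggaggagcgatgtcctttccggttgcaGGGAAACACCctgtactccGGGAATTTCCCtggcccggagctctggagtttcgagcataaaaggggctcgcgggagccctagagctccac
Hspb1, chr5:135887799-135887918, plus strand: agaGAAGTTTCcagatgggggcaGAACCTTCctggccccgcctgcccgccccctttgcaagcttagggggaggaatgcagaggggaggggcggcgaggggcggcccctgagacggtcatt
A match is a run of letters and not a proven binding site. Of the 13740 genes tested below, 10363 had a promoter in the RefSeq table, and 36.1% of those held CCAAT within 250 bases upstream of the start. Among the genes of the mitosis list the share was 32 of 42 (76.2%). TTTGAA was found in 15 of the same 42 (35.7%) against 11% of all, and TTCGAA in 2 (4.76%) against 1.71%. The NF-kB letters occurred in 3 of 12 genes of the chemokine, interleukin-1, calprotectin, neutrophil and NF-kB lists that were lower (25%), against 21.8% of all promoters of this length. They also occurred in 14 of the 42 promoters of the mitosis list (33.3%), Cdc20 among them, where they are not marked. GAANNTTC occurred in Hspb1 and in Hspa1a, 2 of the 3 genes of the metal and heat shock list that were lower, and in 5.08% of all.

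The 6 stripped libraries differed in depth and content before any single gene was tested. Totals ran from 2019739 to 4053655 counts with control cream and from 2997238 to 6303322 with NGO, and 12433 to 13309 and 13863 to 14404 genes were detected. After all libraries were thinned to the smallest total, 12433 to 12912 genes were detected with control cream and 13580 to 13933 with NGO, so that these ranges still did not overlap. The control-cream libraries also resembled each other less. The coefficient of variation beyond counting error was 1.103 among them and 0.836 among the NGO libraries. Of genes reaching 10 CPM in either of 2 replicates (CPM, the count divided by the scaled library size and multiplied by 1000000), 8.74% to 12.8% were at 0 in the other with control cream and 2.78% to 4.001% with NGO. The ribosomal RNA precursor Rn45s took 22.1% to 25.1% of counts with control cream and 9.35% to 21% with NGO. RNA quality was not given in the sources used here, and the part of these differences in the results below was not tested.

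Marker lists were counted to describe which tissue the RNA came from. Basal keratinocyte markers took 0.359%, 0.374% and 0.292% of counts in the 3 control-cream libraries and 2.29%, 1.55% and 1.64% in the 3 NGO libraries. Every NGO library stood above every control-cream library, and below the 2.84% to 3.49% of unstripped skin. Neutrophil markers took 0.569%, 0.951% and 0.33% with control cream and 0.0886%, 0.237% and 0.12% with NGO, again without overlap but in the other direction. Of the 34 neutrophil markers in the tables, 4 were at 0 in all control-cream libraries and 8 in all NGO libraries. This list holds S100a8 and S100a9, with 20655 and 26200 counts over the 3 control-cream libraries and 5512 and 7723 over the 3 NGO libraries. Mmp8 and Hdc, also in it, had 702 and 3446 against 134 and 1358, so the share is weighted toward the 2 calprotectin genes. The share without them was not computed. Skeletal muscle markers took 5.36%, 9.52% and 12.1% with control cream and 3.04%, 2.82% and 5.87% with NGO. These ranges overlapped, and both lay far above the 0.0297% to 0.216% of unstripped skin. No muscle marker was at 0 in all control-cream libraries, and 1 of 30 was in all NGO libraries. Adipocyte markers (0.222% to 0.248% against 0.104% to 0.164%) and red blood cell genes (0.0938% to 0.126% against 0.0307% to 0.0571%) were also lower in every NGO library. Fibroblast, endothelial, macrophage and T cell shares overlapped. With 3 libraries against 3, an exact two-sided permutation test cannot give a p below 0.1, so these shares carry no test.

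**Figure D1:**
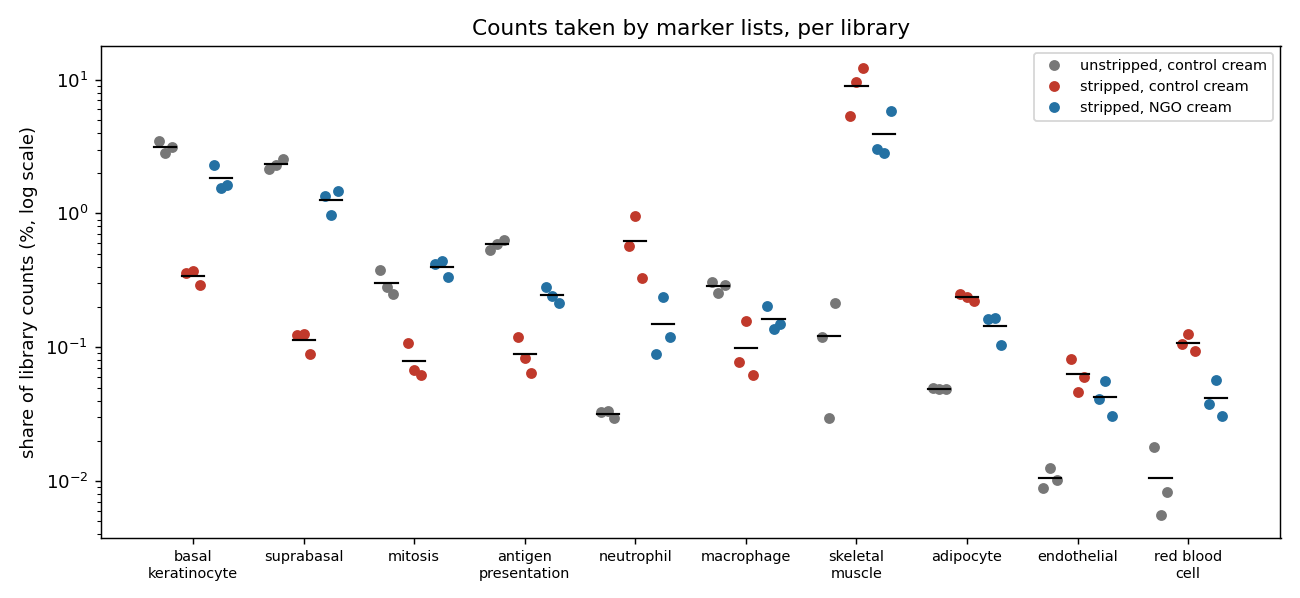
Share of library counts (%, log scale) taken by 10 marker lists; each point is 1 library, bars are means of 3, and colours separate unstripped skin, stripped skin with control cream and stripped skin with NGO cream. Basal, suprabasal, mitosis and antigen presentation shares of the NGO libraries lie above all control-cream libraries, neutrophil, adipocyte and red blood cell shares lie below them, and muscle shares overlap.

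At the level of single genes, 694 of the 13740 tested (5.05%) passed edgeR's quasi-likelihood test at an adjusted p under 0.05. With NGO 532 were higher (3.87%) and 162 lower (1.18%). Genes called higher had a median log2 fold change of 2.77 and genes called lower of -1.80, while the median of all tested genes was 0.07. Of the genes called higher, 92 had no count in any control-cream library, and 6 called lower had none in any NGO library. A fold against such a group is given below as a bound, computed against 3 counts over the group (0.369 CPM with control cream, 0.22 CPM with NGO), which covers counting error only; with such genes set to their bound the median of each list below was unchanged. At this depth a count of 0 does not show that a gene is silent. Groups that did not overlap were frequent among all genes: 16.3% had every NGO library above every control-cream library and 8.92% below. The balance of higher to lower calls moved with the processing: 76.7% of calls were higher here and 66.6% with RLE scaling (428 higher, 215 lower). It was 58.9% with DESeq2 (1150 and 804) and 45% with limma-voom (189 and 231), where the test, the model and, for DESeq2, the filter or, for limma-voom, the sample weights changed along with the scaling. The median over all genes tested was -0.05 with RLE scaling and with DESeq2 and 0.24 with limma-voom, so the direction of log2 changes smaller than these shifts depends on the setting. No gene called here changed sign under any of them.

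**Figure D2:**
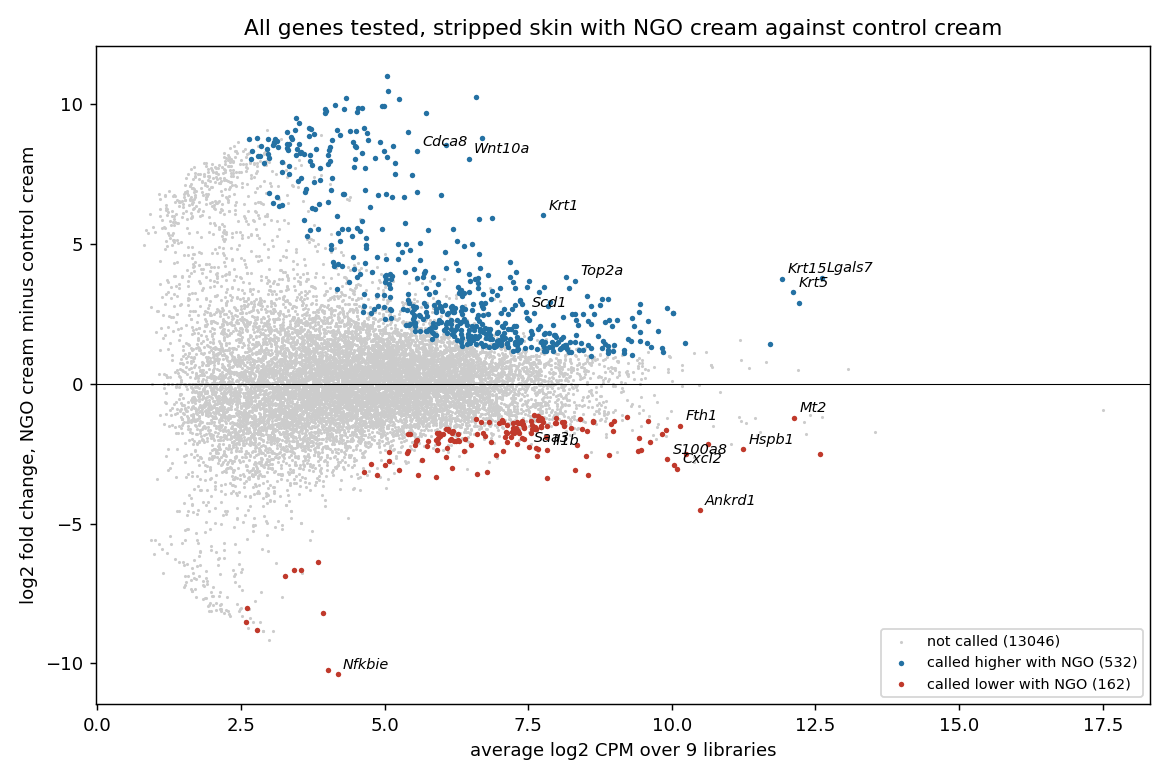
Log2 fold change (NGO cream minus control cream, y axis) against average log2 CPM over the 9 libraries (x axis) for the 13740 genes tested; blue points are the 532 called higher and red points the 162 called lower. Genes called higher include abundant keratinocyte genes (Krt5, Krt15, Lgals7) and genes at or near 0 in control-cream libraries (Krt1, Cdca8, Wnt10a), while Ankrd1, Cxcl2, S100a8 and Hspb1 stand out among the abundant genes called lower.

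The fit of all 9 libraries shares 1 estimate of the spread with the unstripped libraries, which varied least (a coefficient of variation of 0.464). When only the 6 stripped libraries were fitted, 118 of 12406 genes were called, 83 higher (0.669%) and 35 lower (0.282%), and 116 of them were among the 694. With the muscle marker share added as a covariate, 161 genes were higher (1.17%) and 19 lower (0.138%). The covariate was the log2 share in all 9 libraries with group in the model, so its slope came from differences within groups. The unstripped libraries, at 0.0297% to 0.216%, spanned the widest log2 range. How well this fit adjusts for muscle in stripped skin was not tested. When each library was left out in turn, the count ran from 206 (without NGO replicate 1) to 929 (without stripped control replicate 1). It was 318 without NGO replicate 2, 288 without NGO replicate 3, and 397 and 405 without unstripped replicates 2 and 3. In all 9 of these fits 155 genes stayed higher and 11 stayed lower, and 76 and 11 of those were also called in the 6 stripped libraries alone. A call described as holding in all 9 fits belongs to this set.

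**Figure D3:**
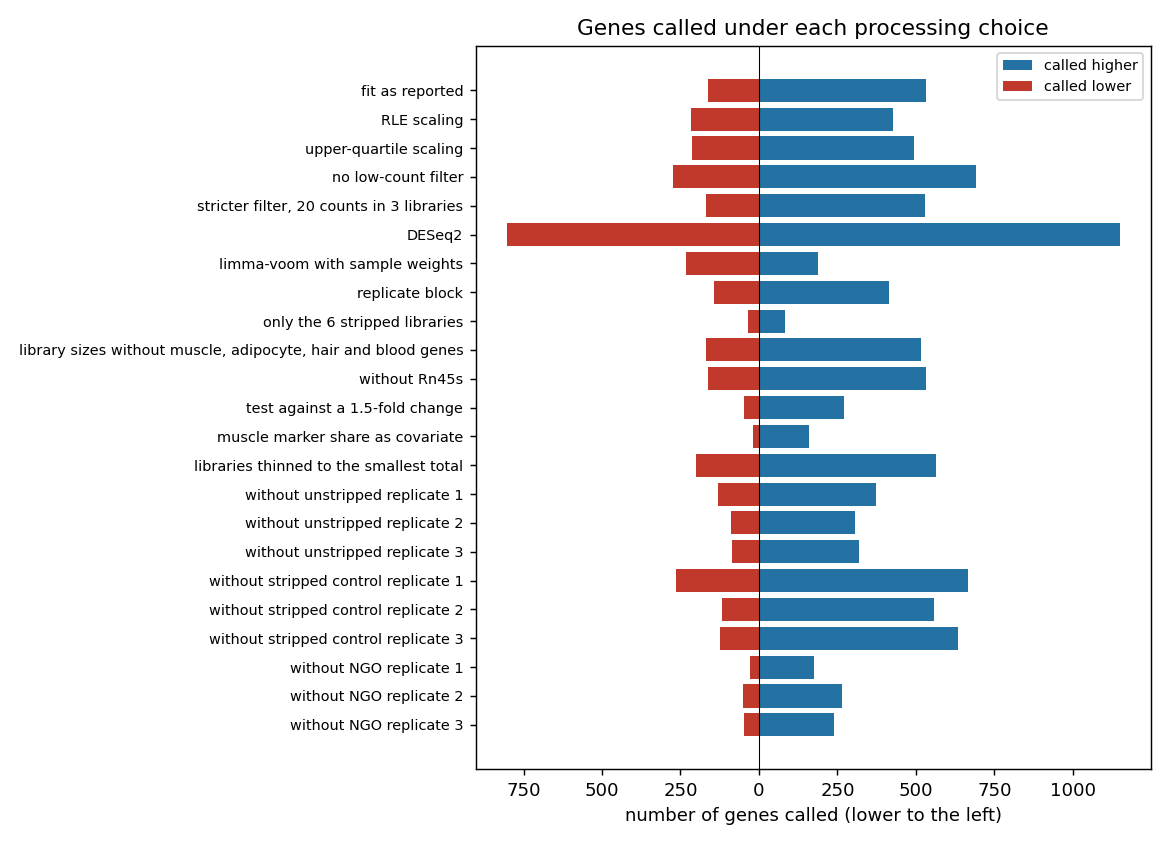
Number of genes called higher (right, blue) and lower (left, red) with NGO under each processing setting, one row per setting. The main fit has 532 and 162, DESeq2 has the most, and the fits of the 6 stripped libraries, with the muscle share as covariate and without NGO replicate 1 have the fewest.

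The genes of the basal epidermal layer were higher with NGO. Of 18 tested basal keratinocyte genes 8 rose and 0 fell, and the median log2 fold change was 1.45. The keratin gene Krt5 (chromosome 15, 101707070 to 101712898) stood at 667, 839.7 and 411 CPM in control-cream replicates 1 to 3 and at 7078, 4998 and 6572 CPM in NGO replicates 1 to 3. The lowest NGO library was well above the highest control-cream library, and NGO values lay close to the 5851 to 6798 CPM of unstripped skin. The fold change was 3.28 ± 0.33 on the log2 scale (± SE; edgeR adjusted p = 0.000557). Its partner keratin gene Krt14 went from 953, 996 and 564 CPM to 8591, 4724 and 5159 CPM (2.88 ± 0.44). Krt15 (chromosome 11, 100131758 to 100135928), a keratin of basal cells and of the hair follicle bulge, went from 59, 53.6 and 26.7 CPM to 762, 415 and 721 CPM (3.77 ± 0.38). All NGO values of Krt15 were above all control-cream values, yet far below the 10064 to 12176 CPM of unstripped skin. The integrin gene Itga6, which anchors basal cells to the basement membrane, rose by 2.06 ± 0.30, from 189, 304 and 231 to 1250.04, 1013 and 749 CPM. The hemidesmosome collagen gene Col17a1 (2.10 ± 0.42), the laminin gene Lamb3 (1.88 ± 0.46), the integrin gene Itga3 (2.77 ± 0.59) and the epidermal master regulator Trp63 (2.23 ± 0.50) completed the 8.

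Genes of the suprabasal layers rose as well, 8 of 19 tested with 0 lower and a median of 2.24. Lgals7 (chromosome 7, 28863853 to 28866284), the galectin of stratified epithelia, went from 544, 929 and 645 CPM to 9361, 7086 and 13102 CPM, a change of 3.80 ± 0.38 (edgeR adjusted p = 0.000557). Its NGO values were within or above the range of unstripped skin (5750.04 to 11367 CPM). Krt1 (chromosome 15, 101845426 to 101850794), the first keratin of differentiating cells, read 0, 2.6 and 0 CPM with control cream and 68.8, 35.9 and 89 CPM with NGO (6.03 ± 0.77). Only 1 control-cream library held any Krt1 count, and the NGO libraries remained below the 579.6 to 593 CPM of unstripped skin. Krt10, the partner of Krt1, did not pass: 199, 89 and 111 CPM against 354, 165 and 201 CPM, 0.86 ± 0.47, edgeR adjusted p = 0.317. Its groups overlapped. Whether the changes of Krt1 and Krt10 differ was not tested. Krt77, a keratin of sweat ducts and suprabasal cells, had no count with control cream and 5.43, 15.5 and 8.15 CPM with NGO. Krtdap (2.24 ± 0.32), Sbsn (2.07 ± 0.38) and Dmkn (2.86 ± 0.47), 3 secreted proteins of differentiating keratinocytes, Lypd3 (2.67 ± 0.35) and the transcription factor gene Klf4 (1.02 ± 0.27) made up the rest.

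Genes for proteins that hold keratinocytes together leaned the same way. Of 29 genes of desmosomes, tight junctions and gap junctions 9 rose and 1 fell (median 1.60). Perp, a desmosome-associated target of p63, went from 86.9, 111 and 80.7 CPM to 775, 426 and 465 CPM (2.58 ± 0.31, edgeR adjusted p = 0.000977). The plakophilin genes, for plaque proteins of the desmosome, rose, with Pkp1 at 57.9, 54.6 and 71.3 against 511, 272 and 265 CPM (2.51 ± 0.37) and Pkp3 at 96.7, 88.4 and 67.5 against 553, 341 and 539 CPM (2.50 ± 0.35). Dsp, the desmosome's link to keratin filaments, rose by 2.54 ± 0.41 and Dsc3, a desmosomal cadherin, by 2.54 ± 0.46. In each of these 5 genes the lowest NGO value exceeded the highest control-cream value. Ppl (3.77 ± 0.83), Dsg1b (0, 0 and 0 against 10.9, 2.31 and 4.49 CPM) and the connexin gene Gjb5 (0, 0 and 0 against 29.3, 0 and 14.3 CPM) also rose. The exception was the claudin gene Cldn7, which stood at 21.2, 0.65 and 9.64 CPM with control cream and at 0 in all NGO libraries, at least 47.8-fold lower, whereas unstripped skin held 21.8 to 41.9 CPM. Cdh1, the epithelial cadherin E-cadherin, was outside the list and was looked up after the values were seen; it rose by 2.94 ± 0.34, from 32.1, 25 and 22.8 to 240.3, 225 and 147 CPM.

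Barrier genes rose in both lists of them. Of 18 genes for the lipids of the cornified layer 7 rose (median 1.88), and of 26 tested cornified envelope genes 3 rose (median 1.66); 0 fell in either list. At an unadjusted p under 0.05 edgeR had 8 barrier lipid genes higher and 1 lower, and 9 cornified envelope genes higher and 0 lower. DESeq2 called 8 higher and 1 lower in the first list, and 4 and 0 in the second. Whether the lists differ was not tested. Elovl4, the elongase for ultra-long ceramide acyl chains, went from 77.1, 77 and 55.6 CPM to 233, 422 and 525 CPM (2.49 ± 0.35, edgeR adjusted p = 0.00236). Cyp4f39, the hydroxylase of those chains, had no count with control cream and 23.2, 38.4 and 38.8 CPM with NGO, at least 90.6-fold higher and close to the 26.5 to 46.8 CPM of unstripped skin. Alox12e, an epidermal lipoxygenase gene, had no count with control cream and 25.7, 6.71 and 8.32 CPM with NGO, at least 36.7-fold higher but below the 126 to 287 CPM of unstripped skin. Aloxe3 (5.28 ± 1.18), Elovl1 (1.96 ± 0.44), Slc27a4 (2.60 ± 0.52) and Pnpla1 also rose. Casp14, the protease of terminal differentiation, went from 0 in all control-cream libraries to 31.4, 4.63 and 17.5 CPM. Flg2 (3.68 ± 0.81) and Hrnr (4.79 ± 0.997), relatives of filaggrin, were the other cornified envelope genes that rose. Loricrin (Lor), the main envelope protein, did not pass (0, 12.3 and 6.11 CPM against 25.7, 6.01 and 30.8 CPM, edgeR adjusted p = 0.26). Members of the Lce and Sprr families share sequence, and the handling of reads with several matches was not given in the sources used here.

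Of 22 tested transcription factor genes of keratinocytes 7 rose and 0 fell (median 1.38). Sox21, a factor of hair and epidermal differentiation, had no count with control cream and 41.7, 19.4 and 28.4 CPM with NGO, at least 80.8-fold higher. Tfap2c went from 34.7, 4.55 and 11.6 CPM to 189, 178 and 83 CPM (3.17 ± 0.61), and its groups did not overlap. Gata3 (3.05 ± 0.68), Klf5 (1.40 ± 0.34), Klf4 and Trp63 also rose. Of 22 stress keratin and alarmin genes 2 rose and 1 fell. Krt6b (1.76 ± 0.40) and BC100530, a stefin-like gene (1.89 ± 0.40), rose, while the near-identical Krt6a (1.58 ± 0.46, adjusted p = 0.0649) and the wound keratin gene Krt16 (1.18 ± 0.45, adjusted p = 0.153) did not pass in edgeR's test. Reads of Krt6a and Krt6b may not be separable. The growth factor gene Hbegf fell by 1.56 (± 0.41), from 562, 581 and 724 to 265, 216 and 151 CPM. Of 16 hair follicle stem cell genes 3 rose (Krt15, Postn and Krt79) and 2 fell. Lgr5, a marker of follicle stem cells, was at 27.4, 14 and 28.9 CPM with control cream and 0.302, 0.231 and 0 CPM with NGO (-6.88 ± 1.62). The transcription factor gene Runx1 went from 90, 136 and 116 to 31.1, 29.4 and 29.4 CPM (-1.92 ± 0.48).

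Within the epidermal lists the calls of Krt5, Krt14, Krt15, Itga6, Lgals7, Krt1, Krt77, Krtdap, Perp, Pkp1, Pkp3, Dsp, Dsc3, Elovl4, Cyp4f39, Alox12e, Casp14 and Sox21 held in all 9 fits, although Krt1, Krt77, Alox12e, Casp14, Sox21 and Dsc3 did not pass in the 6 stripped libraries alone (edgeR adjusted p = 0.053, 0.156, 0.137, 0.116, 0.0512 and 0.0577). Without NGO replicate 1 the calls of Tfap2c and Hrnr were lost (edgeR adjusted p = 0.0507 and 0.0592), and that of Krt6b without any 1 of the NGO replicates (highest 0.0817). Flg2 was lost without NGO replicate 1 or 3 and without stripped control replicate 3 (0.0703), Cldn7 without unstripped replicate 1 or 2 or any NGO replicate (0.0767), and Lgr5 and Hbegf in 6 of the 9 fits (0.09 and 0.128). BC100530 was lost without NGO replicate 1 or 2 (0.0706). Klf4, Klf5, Lamb3, Dsg1b, Gjb5 and Runx1 passed in 1 or 2 of the 9. In the 6 stripped libraries alone, 4 basal, 4 suprabasal, 4 junction and 2 barrier lipid genes rose, and 0 cornified envelope or keratinocyte transcription factor genes. With the muscle share as covariate these counts were 5, 7, 4, 3, 2 and 1. No basal, suprabasal, cornified envelope or keratinocyte transcription factor gene was lower at an unadjusted p under 0.05 in edgeR, nor called lower by DESeq2 or limma-voom.

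Genes of cell division formed the list with the highest median. Of 50 tested genes of mitosis and G2 phase 18 rose and 0 fell, and the median log2 fold change was 2.99. In 38 of the 50 every NGO library stood above every control-cream library, against 16.3% of all genes. The whole list took 0.107%, 0.0671% and 0.0621% of counts with control cream and 0.419%, 0.442% and 0.335% with NGO, against 0.249% to 0.376% in unstripped skin. Top2a (chromosome 11, 98992943 to 99024189), the topoisomerase that untangles chromosomes in mitosis, went from 47.6, 31.8 and 50.8 CPM to 495, 599 and 586 CPM (3.69 ± 0.41, edgeR adjusted p = 0.000676). NGO replicates 2 and 3 exceeded the highest unstripped library, in a range of 215 to 564 CPM. Cdca8 (chromosome 4, 124918465 to 124939311), a subunit of the chromosomal passenger complex, was at 1.03, 0 and 0 CPM with control cream and 113, 84.9 and 87.3 CPM with NGO, and all NGO values exceeded the 32.4 to 51.3 CPM of unstripped skin. Cenpa, the histone of the centromere, read 0, 1.3 and 0 CPM with control cream and 109.9, 108 and 59.1 CPM with NGO. Kif2c, a kinesin that takes microtubules apart at the centromere, had no count with control cream and 28.4, 69.9 and 29.8 CPM with NGO, at least 116-fold higher. The mitotic kinase gene Plk1 rose from 11.9, 10.4 and 12.2 CPM to 191, 175 and 168 CPM (3.95 ± 0.52). Among the other genes that rose were the cyclin gene Ccna2 (4.72 ± 0.91), its kinase Cdk1 (2.90 ± 0.71), Cdc20, which activates the anaphase ligase (2.67 ± 0.69), Tpx2 (7.74 ± 1.16) and Stmn1 (3.27 ± 0.56).

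Members that did not pass show the limits of this count. Mki67, the common marker of dividing cells, stood at 54.8, 2.27 and 10.3 CPM with control cream and 123, 89.3 and 139.9 CPM with NGO (2.41 ± 0.78, edgeR adjusted p = 0.0931). Its groups did not overlap, but control-cream replicate 1 was far above the other two. Birc5, another subunit of the passenger complex, had overlapping groups (283, 152 and 71.3 CPM with control cream, 194, 254 and 129.8 CPM with NGO, edgeR adjusted p = 0.867). Of 37 tested genes of DNA replication 6 rose and 0 fell (median 1.63). Lig1, the ligase that joins Okazaki fragments, went from 15.5, 12.3 and 38.9 CPM to 150.1, 107 and 212 CPM (2.81 ± 0.51). Pola1, the catalytic subunit of DNA polymerase alpha, had no count with control cream and 32, 15.5 and 42.8 CPM with NGO, at least 81.5-fold higher. Mcm7, a subunit of the replicative helicase, read 0, 23.7 and 3.86 CPM against 159, 168 and 181 CPM (4.16 ± 0.91). Dnmt1 (2.10 ± 0.48), Gins2 (2.83 ± 0.75) and Chaf1b (6.82 ± 1.74) were the others, and Pcna did not pass (0.78 ± 0.73, adjusted p = 0.594).

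The promoters of the mitosis genes were searched for the letters shown at the start. CCAAT was present in 11 of the 13 mitosis genes that rose and had a promoter in the RefSeq table (84.6%), against 36.1% of all. Top2a, Cdc20, Plk1 and Cdca8 hold between 1 and 5 marked runs within the 120 bases printed, Top2a the most. The whole list, called or not, had nearly the same share, so the letters did not single out the genes that passed. Top2a, Cdca8, Cenpa, Kif2c, Plk1, Tpx2, Stmn1, Lig1 and Pola1 passed in all 9 fits. Mcm7 was lost without stripped control replicate 3 and without each NGO replicate (highest edgeR adjusted p 0.0677), and Cdk1 and Cdc20 passed in 4 of the 9 (highest 0.106 and 0.122). In the 6 stripped libraries alone 9 mitosis genes and 1 replication gene rose, and with the muscle share as covariate 11 and 2. DESeq2 called 30 and 9 higher and limma-voom 12 and 2, and neither tool called any lower. Left-out libraries gave 11 to 21 and 2 to 6, the fewest without NGO replicate 1.

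**Figure D4:**
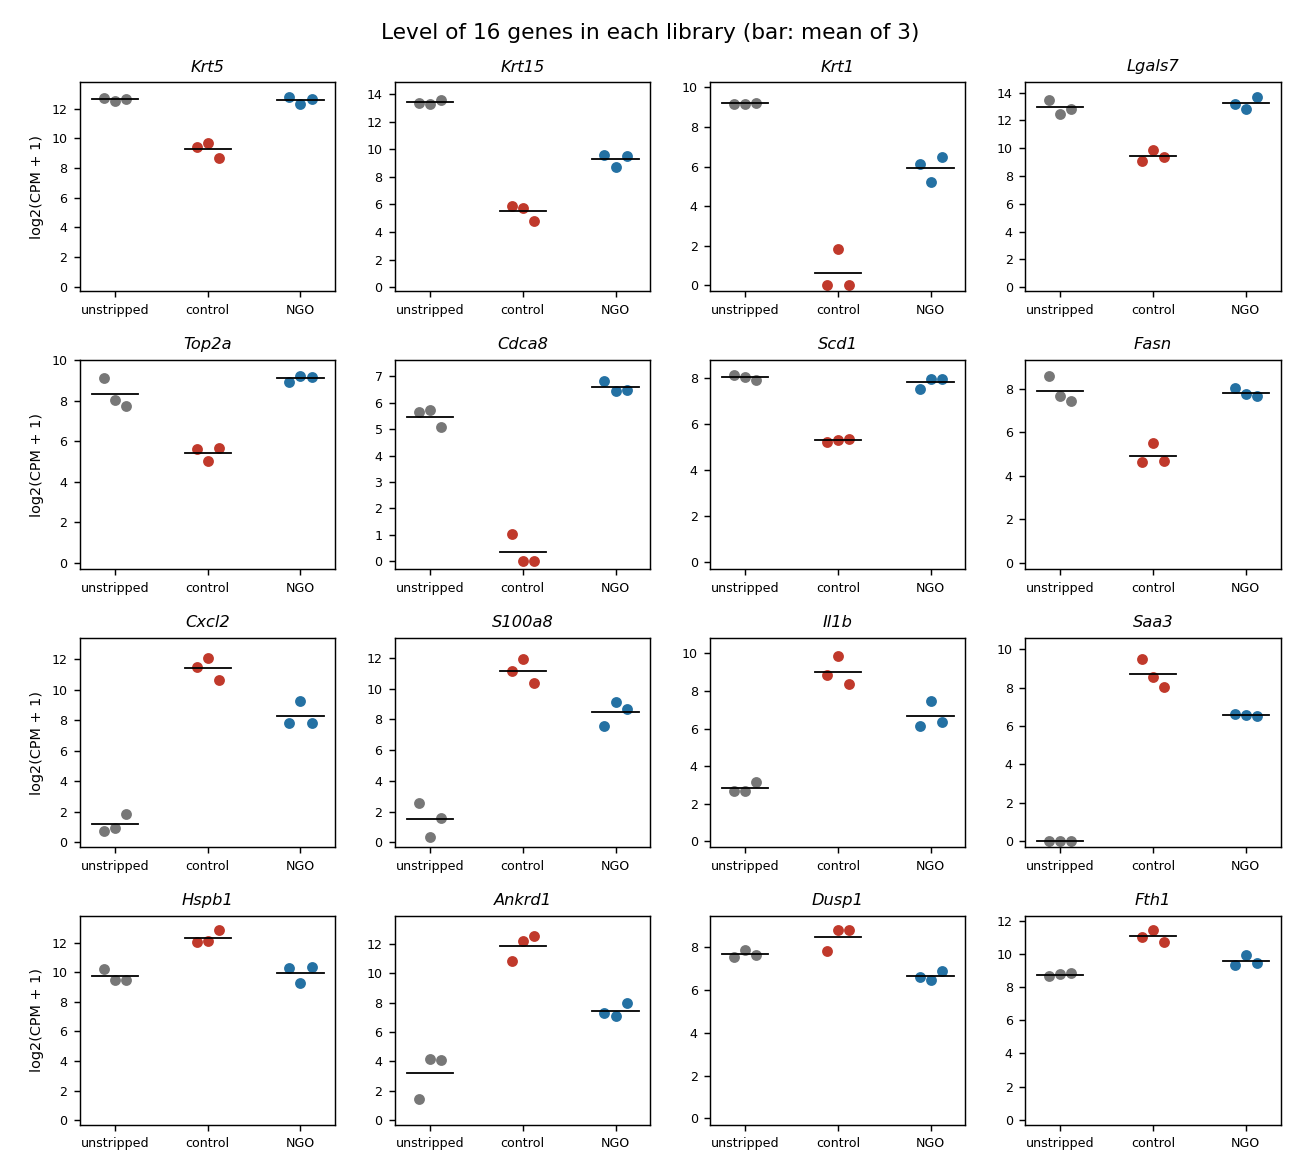
Level of 16 genes in each library, as log2(CPM + 1) on the y axis, in unstripped skin, stripped skin with control cream and stripped skin with NGO cream; points are libraries and bars are means of 3. Krt5, Lgals7, Top2a, Scd1 and Fasn of the NGO libraries lie near the unstripped level, Krt15 and Krt1 between both other groups, and Cxcl2, S100a8, Il1b, Saa3 and Ankrd1 below the control-cream level but above unstripped skin.

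Genes for making cholesterol and fatty acids, which feed the barrier and the sebaceous glands, were higher with NGO. Of 23 cholesterol synthesis genes 6 rose and 0 fell (median 1.05), and of 25 fatty acid and sebaceous genes 6 rose and 0 fell (median 0.83). Scd1, the stearoyl-CoA desaturase (chromosome 19, 44394455 to 44407879), went from 36.2, 38.7 and 40.5 CPM to 182, 249.6 and 253 CPM (2.57 ± 0.31, edgeR adjusted p = 0.000953). Its control-cream values were nearly equal to one another, and NGO replicates 2 and 3 fell within the range of unstripped skin (241 to 281 CPM). Fasn, the fatty acid synthase, went from 23.3, 44.5 and 24.1 CPM to 256, 212 and 201 CPM (2.86 ± 0.41), and the elongase gene Elovl6 from 0, 5.2 and 6.43 CPM to 109, 165 and 120.5 CPM (4.999 ± 0.70). In the cholesterol pathway Msmo1 read 44.5, 39 and 19.9 CPM against 244, 310.2 and 168 CPM (2.81 ± 0.39) and Cyp51 rose by 2.50 ± 0.43. Hmgcs1 (1.53 ± 0.35), Ebp (1.95 ± 0.50) and Hsd17b7 (2.18 ± 0.55) rose too, while the squalene epoxidase gene Sqle (0.33 ± 0.62, edgeR adjusted p = 0.819) did not pass. Elovl5 (1.90 ± 0.44), Soat1 (1.96 ± 0.48) and Fa2h (5.49 ± 1.07) were the remaining fatty acid and sebaceous genes that rose. Scd1, Fasn, Elovl6, Msmo1, Cyp51 and Fa2h held in all 9 fits. In the 6 stripped libraries alone, and also with the muscle share as covariate, 3 genes of each list rose.

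Antigen presentation genes were another group that was higher. Of 22 tested, 5 rose and 0 fell (median 0.75), and the list took 0.119%, 0.0827% and 0.064% of counts with control cream against 0.282%, 0.242% and 0.213% with NGO. Tap1, which pumps peptides into the endoplasmic reticulum for class I molecules, went from 3.62, 4.87 and 13.5 CPM to 69.4, 54.8 and 103 CPM (3.34 ± 0.52, edgeR adjusted p = 0.00383). The class I gene H2-K1 went from 248, 151 and 197 CPM to 721, 545 and 452 CPM (1.53 ± 0.29), and its light chain gene B2m from 379.7, 378 and 193 CPM to 840.3, 691 and 785 CPM (1.29 ± 0.31). H2-D1 (1.11 ± 0.29) rose too, and it shares much of its sequence with H2-K1. The class II invariant chain gene Cd74 read 3.62, 13 and 7.71 CPM against 29.9, 29.1 and 61.6 CPM (2.29 ± 0.53), and the class II gene H2-Ab1 (1.83 ± 0.54, edgeR adjusted p = 0.067) did not pass. Cd207, the langerin gene that marks Langerhans cells, had 1 library with any count in each stripped group, against 8.25 to 20.3 CPM in unstripped skin. Tap1 held in all 9 fits, H2-K1 was lost without NGO replicate 1 (adjusted p = 0.0638) and Cd74 in 6 of the 9 (highest edgeR adjusted p 0.112); 0 genes of the list passed in the 6 stripped libraries alone, and 1, Tap1 (edgeR adjusted p = 0.0097), with the muscle share as covariate.

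Neutrophil-attracting chemokine genes were lower with NGO. Of 14 tested CXC chemokine and receptor genes 3 fell and 0 rose (median -1.49). Cxcl2 (chromosome 5, 90903871 to 90905938) stood at 2857, 4247 and 1609 CPM with control cream and at 223, 616 and 227 CPM with NGO, a change of -3.03 ± 0.51 (edgeR adjusted p = 0.00571). The highest NGO library, replicate 2, was below the lowest control-cream library, replicate 3, and all 6 were far above the 0.688 to 2.65 CPM of unstripped skin. Cxcl1 (chromosome 5, 90891241 to 90893115), its neighbour on the chromosome, went from 194, 153 and 128 CPM to 16.3, 17.6 and 13.6 CPM (-3.32 ± 0.85), and Cxcl5 from 759, 371 and 393 CPM to 56.8, 202 and 42.9 CPM (-2.33 ± 0.57). In neither gene did the groups overlap. The receptor gene Cxcr2, through which neutrophils sense these ligands, did not pass (38.3, 28.3 and 4.18 CPM against 8.45, 5.32 and 5.32 CPM, edgeR adjusted p = 0.379). The promoters printed for Cxcl2 and Cxcl1 each hold GGGAATTTCCC, in which each strand has its own match to the NF-kB letters, 1 base apart; Il1rn was the only other of these lower genes with a match. Of 14 CC chemokine and receptor genes edgeR called 0 lower and 1 higher at a median of -2.09. In 7 of the 14 every NGO library was below every control-cream library, against 8.92% of all genes. At an unadjusted p under 0.05 edgeR had 4 lower, DESeq2 called 3 and limma-voom 2, and with the muscle share as covariate edgeR called 1 lower, Ccl4. Ccl3 (196, 125 and 63 CPM against 6.04, 42.1 and 11.3 CPM, edgeR adjusted p = 0.0642) and Ccl4 (656, 567 and 308 CPM against 52.5, 183 and 52.6 CPM, adjusted p = 0.0978) were the nearest. The skin-homing chemokine gene Ccl27a, made by keratinocytes, rose from 5.17, 6.17 and 24.4 CPM to 129, 61.1 and 135 CPM (3.15 ± 0.56).

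Of 15 tested genes of the interleukin-1 family 2 fell and 0 rose (median -0.85). Il1b (chromosome 2, 129364570 to 129371139) was at 454, 918 and 331 CPM with control cream and 69.1, 177 and 81 CPM with NGO (-2.38 ± 0.46, edgeR adjusted p = 0.012). Its antagonist gene Il1rn fell as well, from 141, 114 and 91.3 CPM to 35.6, 53.4 and 24.5 CPM (-1.61 ± 0.43). Il1a, the keratinocyte form, stood at 35.2, 36.1 and 39.8 CPM with control cream and 0, 9.72 and 0 CPM with NGO, where 2 of 3 libraries had no count, and did not pass (edgeR adjusted p = 0.266). Il6 (37.2, 36.7 and 16.1 CPM against 6.94, 1.39 and 5.16 CPM, adjusted p = 0.152) and Tnf (8.79, 40 and 1.61 CPM against 0, 2.54 and 5.32 CPM, adjusted p = 0.434) did not pass in edgeR's test either. In the wider list of 27 cytokines and receptors 2 rose, the receptor genes Il20rb (0, 3.57 and 0 CPM against 136, 53.2 and 59.6 CPM) and Il6ra (2.58 ± 0.54), and 0 fell. The median was -0.63 and 18 changes were negative. At an unadjusted p under 0.05 edgeR had 5 lower and 3 higher, DESeq2 called 4 and 3, and limma-voom 1 and 0. Il20rb held in all 9 fits, and Il6ra was lost without NGO replicate 1 or 3 (highest edgeR adjusted p 0.0677). Neither passed in the 6 stripped libraries alone (0.0512 and 0.14).

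Calprotectin, acute-phase and neutrophil genes were lower. Of 21 calprotectin, acute-phase and antimicrobial genes 3 fell (median -1.53), and of 27 tested neutrophil markers 5 fell (median -2.41), with 0 higher in either. S100a8 (chromosome 3, 90668978 to 90670035) read 2234, 3984 and 1310.01 CPM with control cream and 188, 568 and 405 CPM with NGO (-2.70 ± 0.59, edgeR adjusted p = 0.0221). S100a9 (chromosome 3, 90692632 to 90695721), the other subunit, went from 2105, 5243 and 1927 CPM to 245, 872 and 522 CPM (-2.50 ± 0.48). In both genes control-cream replicate 2 was highest and no NGO library reached the lowest control-cream library. Saa3, an acute-phase serum amyloid gene without a count in unstripped skin, went from 724, 373 and 258 CPM to 98.1, 94.4 and 89.3 CPM (-2.26 ± 0.41). Its NGO values were nearly equal to one another. Mmp8, the neutrophil collagenase (204, 67.6 and 32.1 CPM against 17.2, 7.63 and 7.32 CPM), Retnlg (275, 415 and 102 against 6.94, 64.1 and 13.5 CPM) and Hdc, the histamine-forming enzyme (265, 704 and 247 against 86.7, 157 and 65.1 CPM), were the other 3 neutrophil markers that fell, and Hdc was also the 1 mast cell marker that fell of 3 tested. Fitted changes were negative in 24 of the 27 neutrophil markers, and in 15 the NGO libraries were all below the control-cream libraries, where 8.92% of all genes were. Lcn2, an antimicrobial protein of neutrophils and keratinocytes, did not pass (-1.53 ± 0.63, edgeR adjusted p = 0.182).

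These inflammation calls depended on single libraries. Among the genes called lower, only Cxcl2 held in all 9 fits in the chemokine, interleukin-1, calprotectin and neutrophil lists. When NGO replicate 1 or 3 was left out, Il1b (highest edgeR adjusted p 0.0677) and S100a9 (0.0527) no longer passed. Saa3 no longer passed without NGO replicate 1 or 2 (0.0626). The call of S100a8 ended when any of the NGO libraries, or the second stripped control, was removed (highest 0.0968). That of Retnlg ended on removal of NGO replicates 1 or 3, the second stripped control or the first unstripped library (0.121). For Cxcl5 the libraries were NGO replicates 1 and 3, the first stripped control and the third one (0.144), for Mmp8 NGO replicates 2 and 3 and the first stripped control (0.0811), and for Hdc NGO replicates 1 and 3 and the second stripped control (0.12). Cxcl1 passed only with all 6 stripped libraries present (0.131). Il1rn passed in 1 of the 9 (0.146). In the 6 stripped libraries alone 2 CXC chemokine genes, 2 calprotectin and acute-phase genes and 1 neutrophil gene fell, and with the muscle share as covariate 2, 1 and 1. Neither interleukin-1 family call held in these fits (edgeR adjusted p = 0.0553 and 0.0679 for Il1b, 0.122 and 0.123 for Il1rn). DESeq2 called 5, 6 and 11 genes of the CXC chemokine, calprotectin and neutrophil lists lower and limma-voom 3, 3 and 6; of the genes in them 1 calprotectin or acute-phase gene was called higher, by DESeq2. The neutrophil share of counts given above, which itself includes S100a8 and S100a9, and the muscle share were lower beside these genes. Their part in the result was not tested beyond the covariate.

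Other immune lists moved little or both ways. Of 27 genes of pattern recognition and NF-kB signalling 2 fell (median -0.53). Nfkbie (chromosome 17, 45555703 to 45563169), an inhibitor of NF-kB that is itself an NF-kB target, stood at 79.7, 14.6 and 49.5 CPM with control cream and at 0 in all 3 NGO libraries, at least 218-fold lower (edgeR adjusted p = 0.00383, in all 9 fits). The main inhibitor gene Nfkbia did not pass (1168, 1067 and 995 CPM against 954, 944 and 558 CPM, edgeR adjusted p = 0.463). Sod2 fell by 1.10 (± 0.29), but passed in 1 of the 9 fits (highest adjusted p 0.15). Of 23 macrophage genes 3 rose and 1 fell, and the median of -0.24 turned positive (0.21) with limma-voom. Apoe, which keratinocytes and sebaceous glands also express, rose from 77.1, 242 and 93.8 CPM to 1287, 483 and 951 CPM (2.72 ± 0.48), Cd74 and Maf rose, and Spp1 fell from 209, 546 and 155 CPM to 45.6, 80.3 and 45.9 CPM (-2.41 ± 0.48). The defining macrophage genes Csf1r (-0.24 ± 0.63, adjusted p = 0.878) and Cd68 (-1.95 ± 0.57, adjusted p = 0.0686) did not pass in edgeR's test. The interferon-stimulated genes Usp18 and Rsad2 did not pass (edgeR adjusted p = 0.216 and 0.179). Of 15 T cell genes Thy1, which fibroblasts also express, rose (2.42 ± 0.54), and Cd2 (2.42, 6.48 and 7.15 CPM with NGO, no count with control cream) did not pass (edgeR adjusted p = 0.079). Spp1 was lost without NGO replicate 1 or 3 (adjusted p up to 0.0767) and Thy1 without the same libraries (0.0917).

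Rapid-response and stress genes were lower with NGO. Of 31 tested immediate early genes 6 fell and 0 rose (median -1.24). In 17 of the 31 all NGO libraries were below all control-cream libraries, against 8.92% of all genes. Dusp1, a phosphatase that switches off MAP kinases, went from 225, 437 and 443 CPM to 94.8, 86.5 and 119 CPM (-1.88 ± 0.33, edgeR adjusted p = 0.00774), below the 186 to 228 CPM of unstripped skin. The stress transcription factor gene Atf3 went from 127, 326 and 349.9 CPM to 18.1, 31.5 and 40.8 CPM (-3.15 ± 0.64) and Csrnp1 from 147, 246 and 123 CPM to 29, 51.6 and 46.3 CPM (-2.02 ± 0.41). Fos fell from 57.9, 71.2 and 75.2 CPM to 17.8, 23.1 and 18.3 CPM, Egr1 from 201, 409 and 230.4 CPM to 90.3, 104 and 83.5 CPM, and Gadd45g fell by 1.74 (± 0.45), while Jun (-0.75 ± 0.48) and Junb (-0.70 ± 0.39) did not pass (edgeR adjusted p = 0.396 and 0.329). The NGO values of Fos and Egr1 also lay below all unstripped libraries (66 to 168 and 170.1 to 324 CPM). Dusp1 held in all 9 fits. Atf3 was lost without NGO replicate 1 or 2 and Csrnp1 without stripped control replicate 2 or NGO replicate 1 (highest adjusted p 0.0813 and 0.0754), and Fos, Egr1 and Gadd45g passed in 2, 5 and 2 of the 9 in edgeR's test. A fit of the 6 stripped libraries alone left 2 immediate early genes lower, Dusp1 and Atf3 (edgeR adjusted p = 0.0491 and 0.0231). With the muscle share as covariate 0 of the 6 passed, Dusp1 at an adjusted p of 0.0534, Csrnp1 at 0.0815 and Atf3 at 0.091.

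Of 24 metal and heat shock genes 3 fell and 0 rose (median -0.69). Hspb1 (chromosome 5, 135887919 to 135889563), a small heat shock protein of keratinocytes and muscle whose promoter holds both heat shock core runs printed above, stood at 4170.01, 4479.9 and 7297 CPM with control cream and 1267, 619.7 and 1293 CPM with NGO (-2.33 ± 0.38, edgeR adjusted p = 0.00479, in all 9 fits). The NGO values were close to the 705 to 1209 CPM of unstripped skin. The metallothionein gene Mt2 fell from 5343, 8792 and 10904 CPM to 3047, 3549 and 4244 CPM and Hspa1a from 103, 172 and 408 CPM to 66.7, 8.1 and 42.9 CPM, and they passed in 2 and 1 of the 9. Mt1 had the same direction without passing (-1.13 ± 0.40, edgeR adjusted p = 0.122). Of 34 genes of the NRF2 antioxidant response 3 rose and 3 fell (median -0.19). The iron storage gene Fth1 went from 2037, 2791 and 1689 CPM to 635, 984 and 705 CPM (-1.49 ± 0.29) and its partner Ftl1 from 336, 648 and 559 CPM to 119.9, 192 and 269 CPM, whereas the canonical targets Hmox1 (-0.34 ± 0.72, adjusted p = 0.844) and Nqo1 (-1.06 ± 1.24, adjusted p = 0.689) did not pass. Srxn1 fell (-2.04 ± 0.49), and Tkt (1.96 ± 0.38), Gsta4 (2.03 ± 0.51) and Prdx1 (1.27 ± 0.31) rose. Fth1 lost its call without NGO replicate 1 or 3 (highest edgeR adjusted p 0.0777), Tkt without NGO replicate 3 (0.053), and Srxn1 without stripped control replicate 3 or any NGO replicate (0.121). In the 6 stripped libraries alone 1 metal and heat shock gene fell and 0 NRF2 genes passed. With the muscle share as covariate 1 metal and heat shock gene, Hspb1 (edgeR adjusted p = 0.0279), fell and 1 NRF2 gene, Tkt (0.0326), rose.

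Tissue below the epidermis was measured alongside. All 29 tested skeletal muscle genes had negative fitted changes, with a median of -1.54. None was called by edgeR, although 19 had an unadjusted p under 0.05, DESeq2 called 1 and limma-voom called 20 lower. The muscle actin gene Acta1 stood at 17773, 30153 and 33339 CPM with control cream and 6710.1, 6371 and 11534 CPM with NGO (-1.72 ± 0.80, edgeR adjusted p = 0.232), and the creatine kinase gene Ckm at 3215, 7128 and 10065 CPM against 1298, 1357 and 3469 CPM (adjusted p = 0.169). Groups did not overlap for Acta1, and the spread within each group was large. A larger fall was seen in Ankrd1 (chromosome 19, 36111961 to 36120099), a stretch-response protein of muscle that other injured cells can also make: 1762, 4620.3 and 5922 CPM with control cream and 157, 137 and 244 CPM with NGO (-4.51 ± 0.66, edgeR adjusted p = 0.00263). The lowest control-cream value was several-fold above the highest NGO value. Rcan1, a calcineurin regulator (1152, 1326 and 2461 against 374, 186 and 371 CPM), Bag3, a co-chaperone (216, 281 and 449.8 against 59.2, 72.6 and 92.7 CPM), and Xirp1 (376, 1260.2 and 1397 against 72.2, 23.8 and 221 CPM), all well expressed in muscle, fell too. Ankrd1 and Rcan1 held in all 9 fits, in the 6 stripped libraries alone and with the muscle share as covariate (adjusted p = 0.00927 and 0.0376), Bag3 was lost without NGO replicate 1 (0.0501) and with the covariate (0.0621), and Xirp1 without 4 of the libraries (0.136) and with the covariate (0.513). Of 16 adipocyte genes 2 fell, Lpl (275, 348 and 397 against 68.8, 119 and 126 CPM) and Car3, which muscle also expresses. Of 7 red blood cell genes 1 fell, Hba-a1 (608, 874 and 736 against 213, 285 and 228 CPM), a gene with near-identical copies. Lpl was lost without NGO replicate 1 or 2 (highest edgeR adjusted p 0.0796). Car3 and Hba-a1 passed in 3 and 4 of the 9 fits (highest 0.156 and 0.126). With the covariate Lpl, Car3 and Hba-a1 did not pass (0.106, 0.272 and 0.193). In the 6 stripped libraries alone Lpl did not pass (0.0573), while Car3 and Hba-a1 did (0.0365 and 0.0447). Of 15 endothelial genes edgeR called 0 (median -1.05; 2 lower at an unadjusted p under 0.05, 1 by DESeq2 and 0 by limma-voom), and of 24 fibroblast and collagen genes 1, Thy1 (median -0.22). Col1a1 (-0.22 ± 0.35, edgeR adjusted p = 0.783) did not pass. No tested melanocyte, Schwann cell or hair shaft gene was called by edgeR; at an unadjusted p under 0.05 there were 2, 1 and 1, and DESeq2 called 1, 1 and 0.

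Of 29 genes of matrix turnover and wound repair 2 rose and 3 fell (median -0.80). Tnc, the wound matrix protein tenascin C, went from 28.4, 32.8 and 38.6 CPM to 185, 151 and 126 CPM (2.21 ± 0.43), above the 10.6 to 21.7 CPM of unstripped skin, and Postn, periostin, from 1.03, 0 and 8.03 CPM to 60.1, 31.9 and 57.4 CPM (3.98 ± 0.91). Mmp8, the macrophage elastase gene Mmp12 (88.4, 42.2 and 52.4 against 3.93, 11.8 and 8.98 CPM) and Spp1 fell. Timp1 did not pass (94.7, 153 and 132 CPM against 2.72, 56 and 21.5 CPM, edgeR adjusted p = 0.152). Tnc was lost without NGO replicate 1 (adjusted p = 0.0677), Postn without any NGO replicate (0.0813) and Mmp12 in 8 of the 9 (0.145). Of these genes 1 rose in the 6 stripped libraries alone, Tnc (0.0383), and 0 fell, and with the muscle share as covariate 0 rose and 2 fell, with Tnc at an edgeR adjusted p of 0.0609.

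General cell machinery had smaller median changes than the cell division lists. Of 83 ribosomal protein genes 6 rose and 0 fell, against 3.87% and 1.18% of all genes. The median was 0.62 and 75 changes were positive. In 48 of the 83 every NGO library stood above every control-cream library, against 16.3% of all genes. At an unadjusted p under 0.05 edgeR had 37 higher and 1 lower. DESeq2 called 13 higher and limma-voom 7, and neither called any lower. Rpl22 (476, 612 and 588 against 1464, 1471 and 1707 CPM, 1.47 ± 0.27) held in all 9 fits, and Rpl3 (1.49 ± 0.30) and Rpl6 (1.38 ± 0.28) were lost without NGO replicate 1 (edgeR adjusted p = 0.0736 and 0.0696). No ribosomal protein gene passed in the 6 stripped libraries alone, and 1 did with the muscle covariate. Of 79 respiratory chain genes, which muscle expresses strongly, edgeR called 0 (median -0.56, negative in 70). At an unadjusted p under 0.05 it had 21 lower and 1 higher, DESeq2 called 8 lower and 1 higher, and limma-voom 3 lower. Ndufa2 had the smallest p (1589, 1072 and 1419.6 against 505, 811 and 537 CPM, edgeR adjusted p = 0.0576). Of 45 proteasome genes 1 fell, Psmd8, in 1 of the 9 fits. Of 28 glycolysis and hypoxia genes edgeR called 1 higher, Pfkl (2.79 ± 0.72), also in 1 of the 9, and 0 lower. The median was -0.64 and 22 changes were negative. At an unadjusted p under 0.05 edgeR had 10 lower and 1 higher, DESeq2 called 8 lower and 1 higher, and limma-voom 5 lower. Pfkm and Eno3, the forms of muscle, did not pass in edgeR's test (adjusted p = 0.0762 and 0.106).

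**Figure D5:**
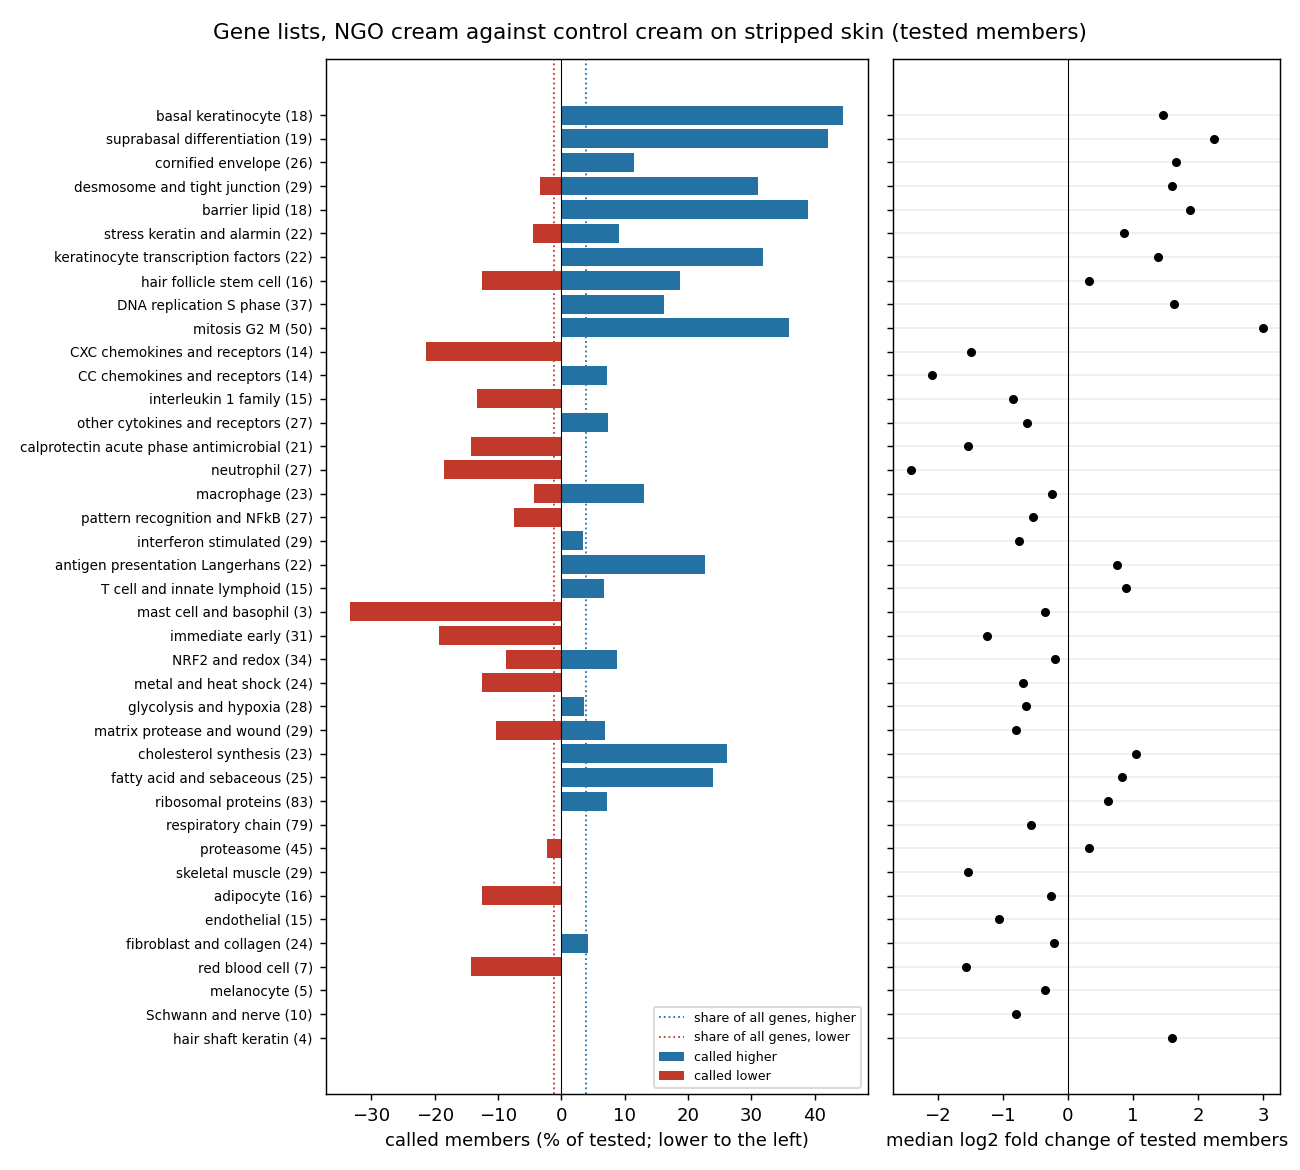
Left, percent of tested members called higher (blue, right) or lower (red, left) in each of 40 gene lists, with the shares of all genes tested (3.87% and 1.18%) as dotted lines; right, median log2 fold change of the tested members, with the number tested in parentheses. Epidermal, lipid and cell division lists lie above 0 and chemokine, neutrophil and immediate early lists below.

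The lists held 138 of the 694 called genes. Among the remaining 556 were most of the largest fitted changes. Wnt10a (chromosome 1, 74791516 to 74804179), a Wnt ligand of hair follicle and epidermis, stood at 0, 1.3 and 0 CPM with control cream and 201, 110.1 and 103 CPM with NGO, within or above the range of unstripped skin (85.5 to 183 CPM). Itpr3, a calcium channel of the endoplasmic reticulum, went from 6.72, 5.2 and 7.07 CPM to 76.4, 91.4 and 97 CPM (3.80 ± 0.40, edgeR adjusted p = 0.000557). Spaca6 had no count with control cream and 87.6, 67.5 and 67.5 CPM with NGO, at least 201-fold higher and above the 17.1 to 27.1 CPM of unstripped skin. Aadac, a lipid esterase (35.3, 76.1 and 40.9 CPM, at least 138-fold), the receptor kinase gene Tyro3 (43.5, 19.9 and 42.1 CPM, at least 95.2-fold), the long noncoding RNA gene Firre (68.8, 15.7 and 21 CPM, at least 95.3-fold), Cdca7l (at least 91.5-fold), Fbxo5, an inhibitor of the anaphase ligase (at least 97.7-fold), Capns2 (at least 119-fold) and Wnt7b (at least 112-fold) were likewise without a count in control-cream libraries. Wnt7b had 75.5, 0.925 and 47.7 CPM in NGO replicates 1 to 3, so that replicate 2 was near 0. All 10 of these genes held in all 9 fits, and in the 6 stripped libraries alone Wnt7b was not tested and Cdca7l and Firre did not pass (edgeR adjusted p = 0.0512 and 0.0507).

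Among the genes that fell outside the lists, Fermt2, kindlin-2, an integrin activator of mesenchymal and muscle cells, went from 209, 145 and 201 CPM to 19.9, 24.5 and 25.1 CPM (-2.99 ± 0.45, edgeR adjusted p = 0.00271). Tm4sf1, a membrane protein of endothelial cells, went from 238, 179 and 207 CPM to 50.7, 47.7 and 38.1 CPM (-2.19 ± 0.36), Stambpl1, a deubiquitinase gene, from 246, 146 and 147 CPM to 33.5, 40 and 28.4 CPM (-2.40 ± 0.41), and Glul, glutamine synthetase, from 933, 1015 and 1114 CPM to 416, 261 and 267 CPM (-1.70 ± 0.29). In each of these 4 genes the groups were well apart and the call held in all 9 fits. Cacna1a, a neuronal calcium channel gene, stood at 59, 31.5 and 37.9 CPM with control cream and at 0 with NGO, at least 195-fold lower, and was lost without NGO replicate 1 (edgeR adjusted p = 0.0554). Rgcc (251, 879 and 675 against 61, 51.6 and 61.6 CPM) and Itch (3.1, 43.9 and 38.6 against 0, 0 and 0.832 CPM) also fell, with the call lost in 4 and 7 of the 9 fits (highest adjusted p 0.0843 and 0.11).

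The genes that rose and fell sat differently against unstripped skin, which is a description only, since it uses the same NGO libraries. Of the 532 genes called higher, the NGO mean was below every unstripped library in 217, within their range in 173 and above all of them in 142. Of the 162 called lower, it was above every unstripped library in 105, within the range in 29 and below all in 28. Krt15 and Krt1 were among the first kind, Cdca8 and Spaca6 were above unstripped skin, and Cxcl2, S100a8 and Il1b were lower with NGO while above unstripped skin (0.688 to 2.65, 0.295 to 4.82 and 5.31 to 7.96 CPM). Dusp1 was lower than unstripped skin.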

How the data were processed

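RNA was measured in 9 mouse skin libraries, 3 per group. The authors deposited raw read counts, as whole numbers by gene symbol, in a separate table per library. Per the submitters' processing notes Bowtie2, bedtools and the mm10 build were used. The handling of strand, overlapping genes and reads with several matches was not given in the sources used here, and near-identical, overlapping and antisense genes are therefore uncertain. Each table held 23282 entries, 23238 unique symbols and no entry without a gene name; 44 repeat entries were kept apart. Coordinates are from GENCODE M21 on mm10, where 22159 symbols matched 1 gene each.

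Counts were analysed in R 4.3.3 with edgeR 4.0.16, using the quasi-likelihood test (robust), TMM scaling, filterByExpr and group as the only factor, fitted to all 9 libraries. P-values were adjusted by Benjamini-Hochberg over the 13740 genes tested, with a call wherever the adjusted p lay under 0.05. Rises, falls and log2 changes are NGO minus control cream, ± SE. CPM uses the TMM-scaled library size. The script was tested on simulated data. DESeq2 1.42.0, limma 3.58.1 (voom with sample weights), RLE and upper-quartile scaling, other filters, the replicate number as a block, the 6 stripped libraries alone, a test against a 1.5-fold change, the muscle share as covariate and leaving out each library were alternatives. Thinning to the smallest total was added after the data were seen.

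The members and the 40 gene lists were chosen with earlier results of these data known. Lists are described by counts and medians, without a test. Genes were named by rule: among called genes whose average log2 CPM reached 3, whose groups did not overlap and whose symbol was not a predicted one, the 10 largest fitted changes and the 10 smallest p in each direction; up to 10 each way that passed without any 1 library; and per list the 3 members with the smallest p where a member was called, otherwise 1. That gave 127 genes, of which some are not reported here. Other members, and the promoters printed, were chosen after their values were seen.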

Additional observations from a re-analysis of the deposited data

How the results depend on the processing

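Of 694 genes called, 532 higher and 162 lower, none changed sign in any of the 22 alternative fits. DESeq2 called 1954 (1150 higher, 804 lower), limma-voom 420 (189 higher), the fit of the 6 stripped libraries 118 (83 and 35), the test against a 1.5-fold change 317 (270 and 47), and the muscle covariate 180 (161 and 19). Without a low-count filter 275 were lower. Leaving out 1 library gave 206 to 929 calls, 177 to 665 higher and 29 to 264 lower. The remaining scalings, filters and thinning (765 called) kept the counts within 1.5 times. The cause of these shifts was not tested, although fewer libraries were fitted in some. Of the 101 named genes that were called, 46 of 99 tested lost their call in the 6 stripped libraries alone, 43 with the covariate, 22 each with limma-voom and with the 1.5-fold test, 46, 27 and 31 without NGO replicates 1, 2 and 3, and at most 18 without any other library. Among named genes that were not called, the mast cell genes Kit and Mrgprb2 turned positive: Kit to 1.17 without stripped control replicate 3, 0.22 without NGO replicate 1 and 0.16 without NGO replicate 3 (lowest with 1 library left out -6.95, without NGO replicate 2), and Mrgprb2 to 0.31 with limma-voom, 5.53 without stripped control replicate 1, 0.51 without NGO replicate 2 and 0.54 without NGO replicate 3 (lowest -5.58, without NGO replicate 1). Dct had no counts left without stripped control replicate 2 and gave no value there. The groups share replicate numbers, but these did not pair the libraries: deviations of same-numbered libraries correlated at 0.0801, -0.000179 and 0.0858 across genes, and 2 of 3 NGO libraries correlated best with their own number. With the replicate block 559 genes were called (416 higher, 143 lower), and 10 of the 101 named genes lost their call. Depth limits low genes most, since 3 counts over a group stand for 0.369 CPM with control cream and 0.22 CPM with NGO.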

Other observations

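Histone genes rose with the cell division genes. Of 12 tested genes of the Hist1h2a cluster 10 were called higher (median log2 fold change 3.83), among them Hist1h2ap, which went from 42.4, 29.6 and 46.3 CPM to 489, 593 and 615 CPM, and Hist1h2ao, from 21.7, 17.2 and 22.8 CPM to 245, 307 and 321 CPM. Their sequences are near-identical, so these values may count the same reads and are uncertain for any 1 gene. The kit reads mainly polyadenylated RNA, and whether the histone transcripts counted here were polyadenylated was not tested. Of all 28 tested histone genes with a Hist symbol these 10 were the ones called. Both histone groups were chosen after the values were seen, so without a test, and 3.87% of all genes were called higher.

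Chaperone and stretch-response genes that muscle expresses were among the genes called lower. In a set of 25 muscle stretch and chaperone genes, put together after the values were seen and so without a test, 14 were called lower (median -2.33), against 0 of 29 in the skeletal muscle list (median -1.54), of which limma-voom called 20 lower. Whether the sets differ was not tested. Flnc, a filamin of the muscle Z disc, went from 1642, 3272 and 3396 CPM to 273, 319 and 528 CPM, and Cryab, a small heat shock protein, from 9981, 14498 and 22540.4 CPM to 2799.6, 1791 and 3701 CPM. Both lost their call with the muscle share as covariate (edgeR adjusted p = 0.0632 and 0.179), Flnc also without NGO replicate 1 or 2 (highest 0.0624) and Cryab without stripped control replicate 3 or any NGO replicate (0.112). Keratin genes with a Krt symbol and fatty acid elongase genes were also grouped after the values were seen, so without a test. Of these 8 of 23 and 4 of 6 were called higher, against 3.87% of all genes, and they include genes already reported above.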
